A study of Homo sapiens with 20 samples.

Results

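The comparison set the CD133− against the CD133+ cells of the endometrial cancer line HEC-1A carrying a stable shRNA against EIF4G2 (EIF4G2KD), to find which transcripts separate the sorted populations. It rests on 10 of the 19 libraries with counts, 5 from CD133− EIF4G2KD and 5 from CD133+ EIF4G2KD, chosen by their labels alone. The 9 Control libraries (5 CD133− and 4 CD133+, from the same line with an shRNA against GFP, labelled shNT) gave the background for the same sort. A further CD133+ Control sample failed the authors' quality check, so 20 samples were labelled in all. HEC-1A is an established line derived from a human endometrial adenocarcinoma. Knock-down and Control cells were both made by lentiviral infection and puromycin selection, so all 4 populations share these treatments. Only 1 shRNA against EIF4G2 was used, in 1 cell line, and the populations were enriched on magnetic beads before the flow sort. RNA was measured by a bulk form of MARS-seq, which tags the 3' ends of polyadenylated transcripts. The labels number the replicates 1 to 5, while the series text gives 4 independent experiments and does not say whether cultures were separate. A p-value here therefore reflects only variation among libraries, which may be technical. For the edgeR tests it is the variation left after a term for the replicate number, pooled over all 4 populations.

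CD133, also called prominin-1 and encoded by PROM1, is a pentaspan membrane glycoprotein of plasma membrane protrusions. It is widely used to isolate stem-like cells from epithelial tumors, the endometrium included. EIF4G2 (DAP5) is a relative of the eIF4G scaffold that lacks the site for the cap-binding protein eIF4E, and it serves the translation of selected mRNAs. Transcript levels therefore do not measure its direct products.

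Counts per library ranged from 1679447 to 5234905 in CD133− EIF4G2KD and from 2198601 to 3607114 in CD133+ EIF4G2KD. All 7 listed markers of epithelial cells were in the table, with a summed level of 4142 to 6048 CPM (counts scaled to library size by TMM) in the CD133− and 3441 to 4018 CPM in the CD133+ libraries. Of 19 listed markers of fibroblasts, leukocytes and endothelium, 1 was in the table (CD68), at 0.610 to 3.23 and 0.834 to 2.45 CPM. On the first principal component of the 10 libraries (35.4% of the variance) CD133− libraries 5, 4 and 2 and CD133+ library 3 scored −57.6, −46.6, −14.0 and −13.6, and the others 8.0 to 40.5. These 4 libraries also held the least EIF4G2 mRNA of the 10. They belong to both populations, and the main counts are given with and without them.

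PROM1, whose protein was the sorting antigen, followed the sort. The gene is on chromosome 4 (GRCh38, 15963076 to 16084378, minus strand). The CD133− EIF4G2KD libraries numbered 1 to 5 held 1.49, 1.83, 1.40, 1.38 and 0.428 CPM and the CD133+ libraries 26.5, 23.3, 12.9, 21.8 and 23.4 CPM. Every CD133+ library lay above every CD133− library, with a log2 fold change of CD133− over CD133+ (log2FC) of −4.02 (standard error 0.33, edgeR adjusted p = 3.2e-07). The same difference was −2.80 in Control, and the change between the 2 differences did not pass the test (adjusted p = 0.19). In these bulk samples, fewer cells carrying a transcript and less of it per cell cannot be told apart. Among called genes with no overlap between the populations and at least 10 CPM in the higher one, PROM1 had the largest difference. The 250 bases before its RefSeq start are therefore shown, with those of SEMA3F and SCIN. SEMA3F had the largest difference toward CD133−, and SCIN is an actin-severing gene higher in CD133+. Capitals mark every match, on either strand, to TATAAA (the TATA box), to GGGCGG (the GC box), to CCAAT (the CCAAT box), to CACGTG (the E-box) or to TGANTCA (the AP-1 site). The coordinates are those of GRCh38.p14. The annotation used for gene positions places the starts elsewhere than RefSeq. By it, the PROM1 window lies wholly within the gene span given above. SCIN starts at 12570577 and SEMA3F at 50155045, so the SCIN window, its nearer TATA box included, and the end of the SEMA3F window reach into these genes.
PROM1, chr4:16084024-16084273, minus strand: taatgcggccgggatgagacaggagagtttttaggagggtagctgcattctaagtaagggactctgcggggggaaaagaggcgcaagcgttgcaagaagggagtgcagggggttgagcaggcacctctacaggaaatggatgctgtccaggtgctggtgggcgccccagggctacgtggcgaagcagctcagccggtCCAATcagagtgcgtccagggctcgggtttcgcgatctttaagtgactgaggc
SCIN, chr7:12570470-12570719, plus strand: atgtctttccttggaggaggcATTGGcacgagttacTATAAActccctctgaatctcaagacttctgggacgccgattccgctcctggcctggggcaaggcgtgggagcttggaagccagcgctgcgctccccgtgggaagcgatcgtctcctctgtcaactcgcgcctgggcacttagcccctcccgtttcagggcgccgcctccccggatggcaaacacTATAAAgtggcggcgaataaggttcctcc
SEMA3F, chr3:50154808-50155057, plus strand: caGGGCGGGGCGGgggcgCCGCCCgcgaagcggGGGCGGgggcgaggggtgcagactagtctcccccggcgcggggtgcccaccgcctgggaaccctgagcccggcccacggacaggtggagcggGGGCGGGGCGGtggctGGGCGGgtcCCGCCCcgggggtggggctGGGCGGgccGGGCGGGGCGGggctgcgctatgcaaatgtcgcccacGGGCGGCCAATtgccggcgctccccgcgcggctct
The PROM1 window held 1 match, a CCAAT box that begins 53 bases before the start. The SCIN window held 3 matches, a CCAAT box and a pair of TATA boxes, the nearer of which begins 29 bases before the start. The SEMA3F window held 13 matches, 12 of them GC boxes, some overlapping, and had a GC content of 82.0% against 58.8% for PROM1 and 60.0% for SCIN. Over 27305 promoters of the same length, 11.1% held a TATA box, 42.3% a GC box, 33.0% a CCAAT box, 6.49% an E-box and 6.60% an AP-1 site, and the median GC content was 58.0%. A match is a description of these letters only.

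HSPB8 and FSCN1 moved with the sort in opposite directions. HSPB8, a small heat shock protein that works with BAG3 in the clearance of misfolded proteins (chromosome 12, GRCh38, 119171555 to 119224855), was at 1.12, 1.22, 1.68, 1.38 and 1.71 CPM in CD133− and at 7.56, 7.76, 9.33, 9.94 and 10.6 CPM in CD133+ EIF4G2KD. All CD133+ libraries were higher (log2FC −2.67, standard error 0.28, edgeR adjusted p = 4.1e-06). FSCN1 encodes fascin, which bundles actin filaments in filopodia and is known for its link with migration of carcinoma cells (chromosome 7, GRCh38, 5592816 to 5606655). Its level was 148, 146, 181, 198 and 212 CPM in the CD133− and 18.1, 18.8, 25.5, 11.8 and 14.5 CPM in the CD133+ libraries. The groups were far apart, with a log2FC of 3.31 (standard error 0.25, edgeR adjusted p = 1.1e-07).

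The targeted gene itself differed between the sorted knock-down populations. EIF4G2 (chromosome 11, minus strand, GRCh38, 10797050 to 10808940, overlapping CTR9 on the opposite strand, which was at 34.6 and 36.1 CPM in CD133− and CD133+) was at 163, 102, 164, 51.1 and 36.8 CPM in CD133− EIF4G2KD libraries 1 to 5 and at 349.8, 270, 129.5, 231 and 253 CPM in the CD133+ libraries. CD133− was lower in 4 of 5 libraries with the same number, and the ranges overlapped, since CD133+ library 3 lay below CD133− libraries 1 and 3. The means were 103 ± 60.0 and 247 ± 79.3 CPM (SD, n = 5 each), a log2 ratio of −1.26 (two-sided exact permutation test, p = 0.0238). The fitted log2FC was −1.32 (standard error 0.29, edgeR adjusted p = 0.0042), and it missed the threshold when only the EIF4G2KD libraries were fitted (adjusted p = 0.0747). Control cells were at 291 ± 69.5 (SD, n = 5) and 337 ± 44.6 CPM (SD, n = 4) in CD133− and CD133+. The knock-down populations therefore differed in their level of EIF4G2 mRNA as well as in CD133, and the part of this difference in the results below was not tested.

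**Figure D1:**
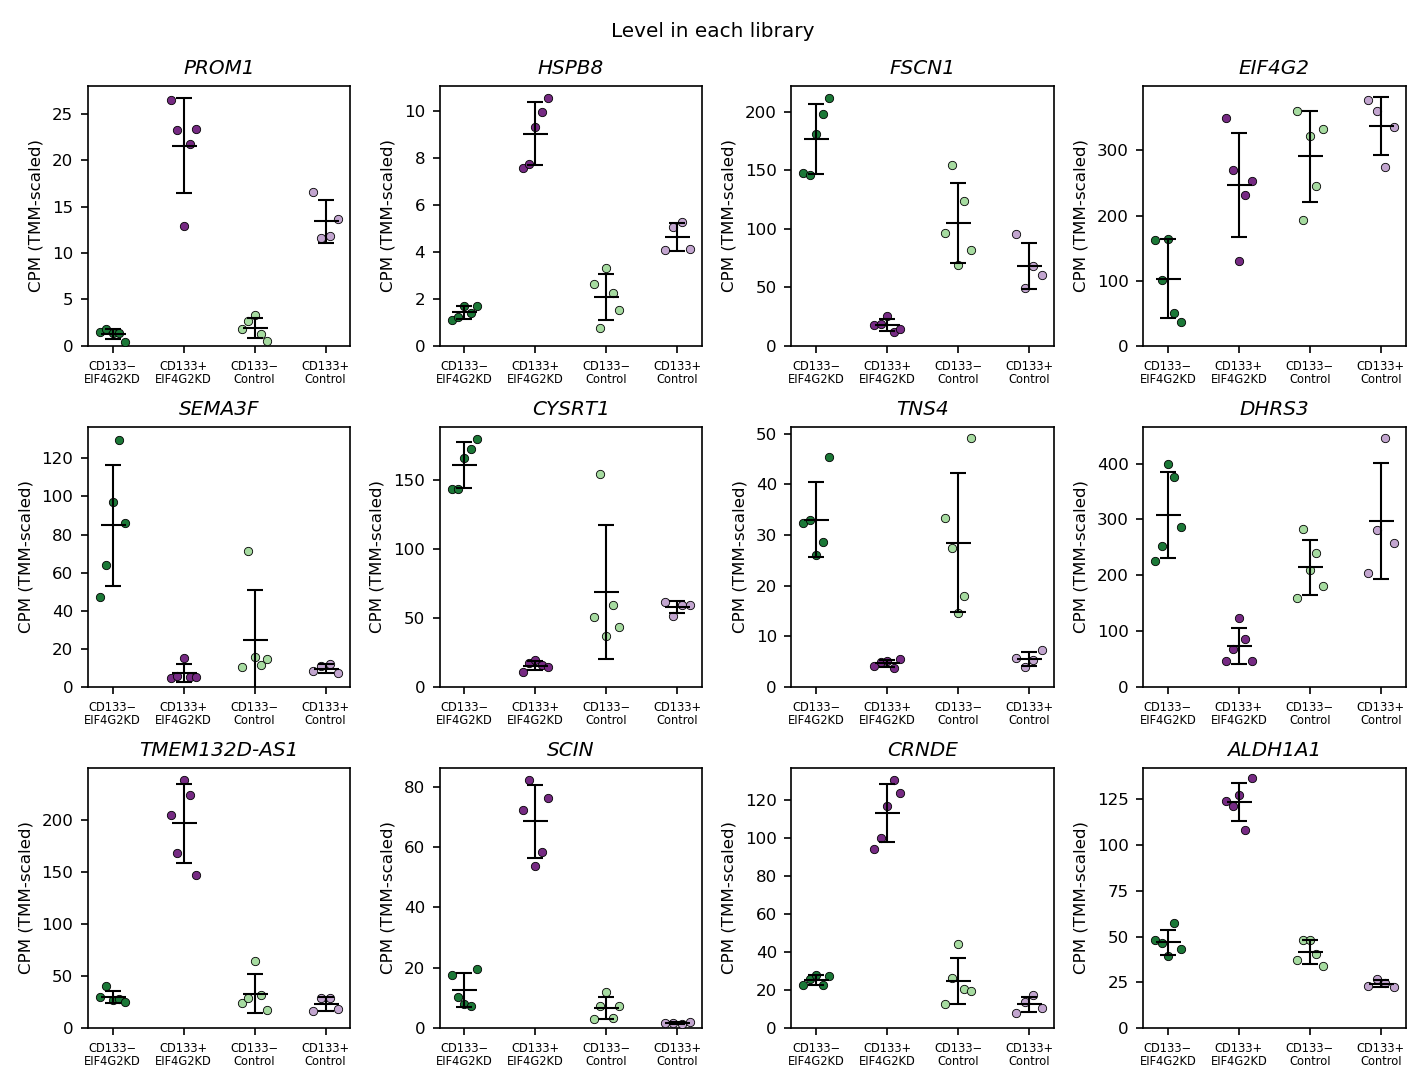
CPM (vertical axis, scaled by TMM, starting at 0) of 12 genes in each of the 19 libraries, by sorted population. Points are libraries, the horizontal bar is the mean and the error bar 1 SD. PROM1, HSPB8, TMEM132D-AS1, SCIN, CRNDE and ALDH1A1 are higher in all 5 CD133+ than in all 5 CD133− EIF4G2KD libraries, and FSCN1, SEMA3F, CYSRT1, TNS4 and DHRS3 are lower.

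Of 10338 genes tested, 962 (9.31%) were called. Calls needed an adjusted p under 0.05, a log2FC past 0.58 either way, and over 10 normalized counts on average. Of these, 538 (5.2% of the genes tested) were higher in CD133− and 424 (4.1%) were higher in CD133+ EIF4G2KD. The median log2FC over all tested genes was −0.02. The 5 and 5 libraries did not overlap for 443 of the called genes, 46.1% of them, against 6.51% of all genes tested. Most differences were moderate, with a median size of 0.85 on the log2 scale, and 31 genes were beyond 2 toward CD133− and 24 toward CD133+. Long noncoding RNAs made 65 of the called genes, 13.1% of the 495 tested, of which 46 were higher in CD133−. Among 9618 protein-coding genes 9.09% were called. In Control, the same sort gave 54 called genes (0.522%), 25 without CD133+ Control library 5 and 34 without CD133+ Control library 1. When only the libraries of a background were fitted, 614 genes were called in EIF4G2KD and 125 in Control. With no block for the replicate number, 606 genes were called in EIF4G2KD, of which 603 were among the 962. Without the 4 libraries that stood apart, 939 were called, of which 636 were among the 962, and the count in Control was 112. The 4 include CD133− EIF4G2KD libraries 2, 4 and 5, so that fit rests on few libraries of this population.

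**Figure D2:**
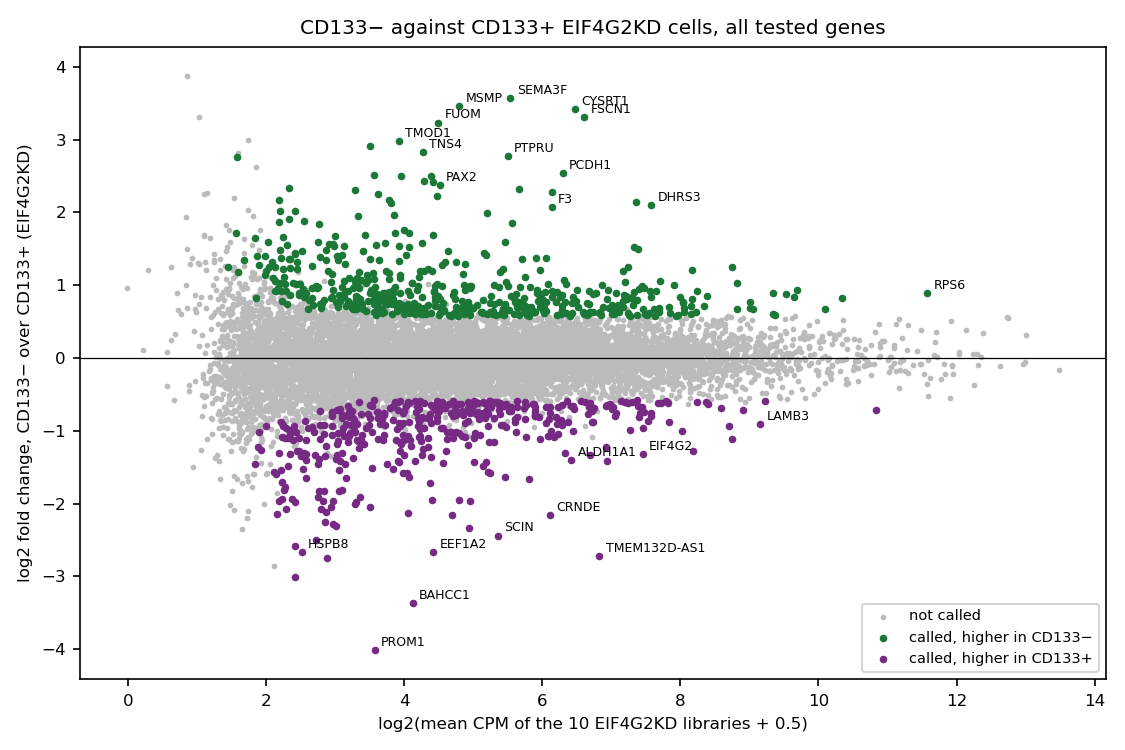
The log2FC of CD133− over CD133+ EIF4G2KD (vertical axis) against the log2 of the mean CPM of the 10 libraries plus 0.5 (horizontal axis), 1 point per tested gene, with called genes colored by direction. The 538 genes called higher in CD133− and the 424 called higher in CD133+ spread over the whole range of levels, with PROM1 at −4.02 and SEMA3F at 3.57.

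SEMA3F, MSMP, CYSRT1, FSCN1 and FUOM had the largest differences toward CD133− EIF4G2KD. Among the 386 called genes with populations that did not overlap and at least 10 CPM in the higher one, the 15 largest differences toward CD133− ran from 2.43 to 3.57. SEMA3F, a secreted semaphorin that repels axons and endothelial cells (chromosome 3, GRCh38, 50155045 to 50189075), was at 47.4, 64.0, 97.1, 129.9 and 86.0 CPM in CD133− and 4.86, 5.72, 15.4, 5.21 and 5.01 CPM in CD133+ libraries. CD133+ library 3 was the highest of its group and still below all CD133− libraries (log2FC 3.57, standard error 0.43, edgeR adjusted p = 1.5e-05). UNC5A, a dependence receptor for netrin, was at a mean of 35.0 against 6.78 CPM (log2FC 2.43). Cell contact genes in this set were PCDH1, a protocadherin of airway and other epithelia (134 ± 32.3 against 22.99 ± 4.91 CPM, SD, n = 5 each, log2FC 2.54), ICAM2, a ligand of leukocyte integrins (log2FC 2.51), and PTPRU, a receptor tyrosine phosphatase found at cell junctions (log2FC 2.77). TNS4, a tensin that binds the tail of integrin beta chains at focal adhesions, was at 32.3, 32.9, 26.0, 28.6 and 45.4 CPM in CD133− and 4.05, 4.90, 5.02, 3.79 and 5.56 CPM in CD133+ libraries. All CD133− libraries were higher by a wide gap (log2FC 2.83, standard error 0.21, edgeR adjusted p = 1.1e-07).

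TMOD1, a tropomodulin that caps the pointed ends of actin filaments, had means of 26.1 and 3.31 CPM in CD133− and CD133+ (log2FC 2.99, edgeR adjusted p = 4.3e-06). SLC47A2, an extruder of organic cations, was at 10.3, 16.5, 16.5, 41.0 and 12.8 CPM in CD133−, with library 4 above the rest, and at 0.278 to 3.95 CPM in CD133+ (log2FC 2.91). It overlaps ALDH3A2 on the opposite strand, and ATP10A, a phospholipid flippase, had a log2FC of 2.52. CYSRT1, a cysteine-rich protein of the epidermis (chromosome 9, GRCh38, 137225174 to 137226315), was among the most abundant, with 144, 144, 166, 173 and 180.2 CPM in CD133− and 10.5, 17.2, 19.4, 15.6 and 14.5 CPM in CD133+ libraries. Its level in CD133− varied by little among the 5 libraries (161 ± 16.8 CPM, SD, n = 5, log2FC 3.42, standard error 0.29, edgeR adjusted p = 3.2e-07). MSMP, a secreted chemoattractant acting through CCR2 (log2FC 3.46), and FUOM, a fucose mutarotase (log2FC 3.24), also stood more than 3 log2 units apart. MSMP overlaps RGP1 on the opposite strand, which was itself higher in CD133− (0.81). The remaining members were BEND7 (2.50) and GRTP1 (2.44).

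In the other direction, the ranking was also limited to called genes with no overlap and at least 10 CPM in the higher population. Within it, the largest differences toward CD133+ EIF4G2KD after PROM1 were those of BAHCC1, SP140, TMEM132D-AS1 and EEF1A2. The 15 largest of this ranking ran from −4.02 to −2.12. BAHCC1, a large chromatin protein with a BAH domain (chromosome 17, GRCh38, 81395457 to 81466331), was at 2.98, 0.610, 2.80, 3.69 and 4.28 CPM in CD133− and 27.5, 27.4, 38.4, 33.1 and 28.9 CPM in CD133+ libraries. Its CD133+ libraries lay close together and far above the rest (log2FC −3.37, standard error 0.32, edgeR adjusted p = 1.4e-06). SP140, a bromodomain reader best known from lymphoid cells, was at 16.7, 12.7, 10.1, 9.46 and 10.9 CPM in CD133+. In CD133− it was at 0 to 3.66 CPM, and the library with no count allows up to 1.38 CPM (3 counts), for a log2FC of −2.75. TMEM132D-AS1, a long noncoding RNA on chromosome 12 (GRCh38, 129109629 to 129113294), was the most abundant of these genes, with 29.7, 40.2, 26.6, 27.6 and 24.8 CPM in CD133− and 204, 168, 239, 224 and 147 CPM in CD133+ libraries. CRNDE, a long noncoding RNA raised in many carcinomas (chromosome 16, GRCh38, 54845189 to 54929189), followed with 22.4, 25.6, 27.7, 22.6 and 27.4 CPM and 94.2, 100.1, 117, 131 and 124 CPM. Both differed by several fold with no overlap (log2FC −2.72 and −2.16, edgeR adjusted p = 1.1e-07 and 5.7e-07).

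SCIN encodes scinderin (adseverin), which severs actin filaments in the presence of calcium. It was at 17.5, 10.4, 7.83, 7.37 and 19.7 CPM in CD133− and 72.1, 82.1, 53.8, 58.2 and 76.2 CPM in CD133+ libraries, and its lowest CD133+ library exceeded the highest CD133− library by a clear margin (log2FC −2.44, standard error 0.26, edgeR adjusted p = 4.8e-06). EEF1A2, the tissue-restricted form of the elongation factor that delivers aminoacyl-tRNA, had 5.41, 2.44, 5.03, 4.61 and 8.13 CPM in CD133− and 15.9, 27.4, 35.9, 68.1 and 36.2 CPM in CD133+ libraries. The spread in CD133+ was wide, from library 1 to the much higher library 4, and the log2FC was −2.67 (standard error 0.27, edgeR adjusted p = 3.0e-06). Genes of secreted proteins and proteases included SERPINA5, the protein C inhibitor (−2.50), HPN, which encodes the membrane serine protease hepsin (9.29 ± 4.81 against 41.5 ± 24.9 CPM, SD, n = 5 each, log2FC −2.16), and FMOD, which encodes the collagen-binding proteoglycan fibromodulin (−2.13). SERPINA5 overlaps SERPINA4 on the same strand, which was at 1.25 and 3.64 CPM in CD133− and CD133+, and sharing of reads was not checked. F2R, the thrombin receptor PAR1, had a log2FC of −2.12. The set was completed by ELFN2 (−2.34), IL1RAPL1, a synaptic membrane protein (−2.31), ARHGAP40 (−2.28) and FAM89A (−2.25).

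ALDH1A1, the retinaldehyde dehydrogenase used with CD133 to mark stem-like tumor cells, was higher in CD133+ EIF4G2KD. The libraries held 47.9, 46.3, 39.2, 57.6 and 43.2 CPM in CD133− and 124, 121, 128, 108 and 137 CPM in CD133+, with no overlap and a small spread (log2FC −1.41, standard error 0.12, edgeR adjusted p = 5.8e-07). CD44, another marker of such cells, was at 30.9 ± 15.0 and 29.8 ± 7.91 CPM (SD, n = 5 each), with a log2FC of −0.01 (standard error 0.22, edgeR adjusted p = 0.98). Of 5 tested kinesin-1 chains, which carry cargo along microtubules, 1 was higher in CD133−, against 9.06% of all genes by the adjusted p alone. It was KLC1, with a log2FC of 0.41 (edgeR adjusted p = 0.02), below the fold threshold, and the median of the 5 was 0.19. Its adjusted p was 0.0618 without the replicate block and 0.0587, 0.0940 and 0.0740 without CD133+ library 1, CD133+ library 5 and CD133− library 5. KLC2 had a log2FC of 0.09 and KLC3 one of −0.28. KIF5B was at 30.8, 14.6, 36.9, 4.61 and 2.14 CPM in CD133−, low in libraries 4 and 5, and at 11.1, 10.6, 9.33, 9.46 and 7.23 CPM in CD133+ (log2FC 0.86, standard error 0.41, edgeR adjusted p = 0.17). Without CD133− library 5 it passed the test (adjusted p = 0.0205), and without the 4 libraries apart as well (2.6e-06). The 4 libraries apart include the lowest CD133− libraries for KIF5B, those at 14.6, 4.61 and 2.14 CPM. Only the CD133− libraries at 30.8 and 36.9 CPM were then left, so the last result depends on which libraries were removed.

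Among genes of double-strand break repair, 3 of 34 were higher in CD133+ and 0 in CD133−. With the adjusted p alone, the rule used for lists, 9.06% of all genes were higher in CD133− and 7.13% higher in CD133+. The median of this list was −0.13. BRCA1, which directs homologous recombination, had a log2FC of −0.49 (edgeR adjusted p = 0.0048). PARP1, the sensor of DNA strand breaks, was at 129.6, 113, 74.1, 69.6 and 121 CPM in CD133− and 188, 159, 115, 98.0 and 174 CPM in CD133+ libraries, higher in CD133+ in every pair of libraries with the same number (log2FC −0.54, edgeR adjusted p = 0.0016). It missed the fold threshold, and without the replicate block its adjusted p was 0.231. RAD50 (−0.16), MRE11 (−0.33) and NBN (−0.13) of the end-processing complex and the topoisomerase TOP3A (0.51) missed the threshold (edgeR adjusted p from 0.12 to 0.81). Of 37 genes of proliferation and mitosis 1 was higher in CD133− and 1 in CD133+, with a median of −0.005. HMGB2, a chromatin protein of dividing cells, was the 1 higher in CD133− (0.85, edgeR adjusted p = 9.1e-05).

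Of the embryonic lineage genes, PAX2, FGF18 and SOX17 were higher in CD133− and TNNI3 was higher in CD133+ EIF4G2KD. PAX2, a transcription factor of the Müllerian duct and kidney, was at 40.1, 29.9, 25.5, 51.1 and 42.4 CPM in CD133− and 8.10, 6.94, 6.82, 2.37 and 10.9 CPM in CD133+ libraries. The difference (2.38, standard error 0.24, edgeR adjusted p = 2.7e-06) had the direction of the Control sort (3.27). FGF18, a secreted growth factor, had 25.1 ± 10.9 against 7.66 ± 3.06 CPM (SD, n = 5 each, log2FC 1.72). SOX17, a transcription factor of endoderm and the endometrial glands, was at 28.2, 12.8, 8.39, 11.1 and 30.0 CPM and 11.3, 4.09, 5.02, 4.73 and 13.6 CPM, with overlapping libraries but a higher CD133− level in every pair (log2FC 1.20, edgeR adjusted p = 6.2e-04, and 0.112 without the replicate block). TNNI3, cardiac troponin I, was at 18.5 ± 3.54 and 55.1 ± 5.70 CPM (SD, n = 5 each), higher in all CD133+ libraries (log2FC −1.57, standard error 0.14). Of 9 tested Müllerian and endometrial factors 5 were higher in CD133− and 0 in CD133+. By the adjusted p alone, 9.06% of all genes were higher in CD133− and 7.13% in CD133+. The median of the 9 was 1.20 against −0.02 over all genes. PAX2, FGF18 and SOX17 are among the 5. The paper names them for the Control sort of this series, so the count and median are a description only. WNT7A, a Wnt ligand of the uterine epithelium, was 1 of the 5 (log2FC 1.42, edgeR adjusted p = 8.7e-05).

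Markers of stem and progenitor cells did not go one way. Of 12 tested, 2 were higher in CD133− and 4 in CD133+, with a median of −0.08 and PROM1 among the 4. The shares over all genes by the adjusted p alone were 9.06% and 7.13%. NES, the intermediate filament nestin of neural progenitors, was higher in CD133+ (−1.83, edgeR adjusted p = 5.1e-04), and so was ALCAM, an immunoglobulin-family adhesion molecule (−1.01, edgeR adjusted p = 0.009, and 0.0617 without the replicate block). CXCR4, the receptor of the chemokine CXCL12, was higher in CD133− at a low level, 4.82 ± 1.50 against 1.19 ± 0.655 CPM (SD, n = 5 each, log2FC 1.95).

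Genes of the actin skeleton and of epithelial contacts changed in both directions. The background for these lists was 9.06% of all genes higher in CD133− and 7.13% in CD133+ by the adjusted p alone. Of 32 tested actin bundling, severing and contractile genes 4 were higher in CD133− and 6 in CD133+ (median −0.02), with FSCN1 and TMOD1 at one end and SCIN and TNNI3 at the other. Of 24 tight junction and adhesion genes 2 were higher in CD133− and 4 in CD133+ (median −0.06). RAB25, a small GTPase of apical recycling in epithelial cells, was at 50.9, 64.0, 61.5, 93.1 and 65.5 CPM in CD133− and 147, 177, 189, 184 and 186 CPM in CD133+ libraries. All CD133+ libraries were higher (log2FC −1.41, standard error 0.11, edgeR adjusted p = 2.6e-07). CGN, the tight junction protein cingulin, followed in the same direction (−0.93). Keratins and mucins were split, with 6 of 13 higher in CD133− and 4 in CD133+ (median −0.11). KRT19 (1343 against 847 CPM, log2FC 0.68), KRT18 (0.47) and KRT8 (0.84) of simple epithelia and KRT13 of stratified epithelia (2.17) were higher in CD133−. KRT81, a hair keratin (−1.46), and MUC1, the apical mucin (−0.67), were higher in CD133+. KRT81 had a log2FC of −0.84 (adjusted p = 0.345) without the 4 libraries apart, and missed the threshold without CD133− libraries 4 and 5 (0.0553). KRT8 and KRT18 overlap on opposite strands. Without the replicate block the adjusted p was 0.0563 for KRT13, 0.0628 for KRT8 and 0.105 for MUC1. Of the 7 epithelial markers checked, 3 were higher in CD133− and 2 in CD133+ (median 0.03).

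Of 29 tested integrins, laminins, collagens and related basement membrane genes 7 were higher in CD133+ and 1 in CD133− (median −0.23). For this and the next lists, the shares of all genes by the adjusted p alone were 7.13% and 9.06%. LAMB3, the beta chain of the epithelial laminin-332, was at 266, 421, 497, 489 and 327 CPM in CD133− and 545, 823, 856, 841 and 632 CPM in CD133+ libraries. No CD133− library reached the lowest CD133+ library (log2FC −0.91, standard error 0.09, edgeR adjusted p = 2.0e-06). COL4A2 and COL4A1, the collagen IV chains that share a divergent promoter, had log2FCs of −0.92 and −0.81, the latter with an adjusted p of 0.0717 without the replicate block. Of 5 mesenchymal genes tested (median 0.18) 1 was higher in CD133+, TGFBI, a secreted matrix protein induced by TGF-beta (1.96 against 7.40 CPM, log2FC −1.94, edgeR adjusted p = 0.0016), and 0 in CD133−. Of 10 tubulins 2 were higher in CD133+ and 0 in CD133− (median −0.28). Of 9 S100 genes 2 were higher in CD133− and 0 in CD133+ (median 0.26).

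Enzymes of aldehyde and retinoid metabolism differed one by one. Against them stand 9.06% of all genes higher in CD133− and 7.13% in CD133+ by the adjusted p alone. Of 11 aldehyde dehydrogenases 4 were higher in CD133− and 3 in CD133+ (median 0.20). ALDH3A2, the fatty aldehyde dehydrogenase, was at 88.4, 89.0, 98.5, 90.8 and 83.03 CPM in CD133− and 46.2, 37.2, 50.2, 46.4 and 42.3 CPM in CD133+ libraries, opposite in direction to ALDH1A1 (log2FC 1.02, edgeR adjusted p = 1.7e-06), and mitochondrial ALDH1B1 had a log2FC of 1.20. Of 11 retinoid genes 4 were higher in CD133− and 2 in CD133+ (median 0.27). DHRS3, which reduces retinaldehyde back to retinol, was at 226, 252, 399, 376 and 286 CPM in CD133− and 46.7, 67.4, 124, 86.1 and 46.4 CPM in CD133+ libraries. It was lower in all CD133+ libraries (log2FC 2.11, standard error 0.16, edgeR adjusted p = 1.1e-07). CRABP2, which carries retinoic acid to its nuclear receptor, went the other way (9.42 ± 2.41 against 31.1 ± 9.21 CPM, SD, n = 5 each, log2FC −1.71). ALDH1A1, which makes retinoic acid, and its carrier CRABP2 were higher in CD133+ EIF4G2KD, and the reductase DHRS3 was lower. Retinoic acid receptors that passed the test were higher in CD133−, so the retinoid list as a whole did not go one way.

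Over all genes tested, 9.06% were higher in CD133− and 7.13% in CD133+ by the adjusted p alone, the background for the metabolic lists. Of 30 sterol and fatty acid synthesis genes 2 were higher in CD133− and 3 in CD133+ (median 0.09), with the acetyl-CoA synthetase ACSS2 the largest of the 5 (1.22, edgeR adjusted p = 9.3e-05). Of 25 glycolysis and hypoxia genes 0 were higher in CD133− and 2 in CD133+ (median −0.03), among them the phosphofructokinase PFKP (−0.55). Of 26 NRF2 targets 3 were higher in each population (median −0.003), with GCLM of glutathione synthesis higher in CD133+ (−1.41). Of 67 nuclear-encoded subunits of oxidative phosphorylation 6 were higher in CD133− and 2 in CD133+ (median 0.04). NDUFA6 of complex I (−0.59) was higher in CD133+, and COX6B1 of complex IV was higher in CD133− (0.57). No transcript of the mitochondrial genome was among the genes tested. Of 3 metallothioneins (median −0.23) and 5 ABC transporters (median −0.06) 0 passed the test, and of 4 glucocorticoid-response genes (median 0.19) 1 did, SCNN1A, a chain of the epithelial sodium channel (64.7 ± 25.6 against 22.6 ± 15.5 CPM, SD, n = 5 each, log2FC 1.60).

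Ribosomal proteins and translation factors differed in both directions. Among all genes, 9.06% were higher in CD133− and 7.13% in CD133+ by the adjusted p alone. Of 72 cytosolic ribosomal proteins 9 were higher in CD133− and 6 in CD133+ (median −0.02). RPS6, the small-subunit protein phosphorylated downstream of mTOR, had the largest difference of those named, 3116, 4420, 3357, 4692 and 4196 CPM in CD133− against 2008, 2205, 2361, 2790 and 1446 CPM in CD133+ libraries. Its groups did not overlap (log2FC 0.89, edgeR adjusted p = 2.8e-05). RPL13A was also higher in CD133− (0.52, adjusted p = 0.136 without the replicate block) and RPLP1 higher in CD133+ (−0.38). RPS6 lies on 9p and RPL13A on 19q, the regions described further on. Of 33 initiation and elongation factors 1 was higher in CD133− and 3 in CD133+ (median −0.06), EIF4G2 and EEF1A2 among the 3.

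Stress and survival genes were mixed. Their counts stand beside 9.06% of all genes higher in CD133− and 7.13% in CD133+ by the adjusted p alone. Of 20 heat shock proteins and co-chaperones 1 was higher in CD133+, HSPB8, and 0 in CD133− (median −0.10). Of 25 genes of the integrated and unfolded protein stress responses 2 were higher in CD133− and 3 in CD133+ (median −0.15). Of 29 interferon and antigen presentation genes 3 were higher in CD133− and 5 in CD133+ (median 0.07), among the latter the interferon-induced IFI35 (33.8, 43.9, 55.7, 48.4 and 35.1 CPM in CD133− and 71.3, 99.7, 107, 116 and 65.4 CPM in CD133+ libraries, log2FC −1.08), IFI6 (−0.91) and IFI27 (−1.10, adjusted p = 0.0761 without the replicate block). Of 16 p53 targets 3 were higher in CD133− and 2 in CD133+ (median 0.11), with SESN1, a sestrin that restrains mTORC1, at 3.97 against 0.847 CPM (log2FC 2.20) and TP53I3 at 0.61. Of 14 BCL2 family genes 3 were higher in CD133− and 1 in CD133+ (median 0.26). BIK, a BH3-only inducer of apoptosis, was at 76.6, 113, 108, 86.2 and 92.9 CPM in CD133− and 32.7, 41.3, 56.3, 20.8 and 32.5 CPM in CD133+ libraries, with no overlap (log2FC 1.38, edgeR adjusted p = 1.8e-05).

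Of 14 immediate early genes 1 was higher in CD133− and 2 in CD133+ (median 0.23). Here too the shares of all genes were 9.06% and 7.13% by the adjusted p alone. EGR1 was higher in CD133− (322 ± 85.1 against 156 ± 26.8 CPM, SD, n = 5 each, log2FC 1.01) and JUN higher in CD133+ (−1.05). Of 11 coagulation and thrombin receptor genes 3 were higher in each population (median 0.06). F3, tissue factor, which starts coagulation, was at 58.7, 154, 67.7, 145 and 144 CPM in CD133− and 17, 35.1, 35.5, 15.6 and 26.7 CPM in CD133+ libraries, and the thrombin receptor F2R, given above, had the opposite direction. The CD133− libraries of F3 were all higher (log2FC 2.07, standard error 0.23, edgeR adjusted p = 6.0e-06).

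To ask which of these differences departed from those of the same sort in Control cells, the CD133 difference in EIF4G2KD was set against that in Control by an interaction term, and 588 genes (5.69%) were called, 776 without the 4 libraries apart and 196 without the replicate block. Of the 962 genes called in EIF4G2KD 424 were among them, 264 higher in CD133− and 160 higher in CD133+. In 421 the term had the sign of the EIF4G2KD difference. The term contains that difference, so the shared sign follows largely from how it is built and carries no test. The 8 largest negative terms among these 424 were those of BAHCC1, SCIN, EEF1A2, POU3F3, TNNI3, TRHDE-AS1, TMEM132D-AS1 and RAB25, all higher in CD133+ EIF4G2KD. BAHCC1 was at 2.51 and 0.361 CPM in CD133− and CD133+ Control, against 2.87 and 31.1 in EIF4G2KD, for a term of −5.86 (standard error 0.72, edgeR adjusted p = 6.5e-05). SCIN was at 6.51 and 1.63 CPM in Control (term −4.39, adjusted p = 3.6e-05 from the same test). The term was −3.06 for TMEM132D-AS1, −3.06 for the noncoding RNA TRHDE-AS1 and −3.82 for EEF1A2. POU3F3, a neural transcription factor, was at 12.8 and 2.33 CPM in Control and 15.2 and 33.1 in EIF4G2KD (term −3.52). TNNI3, RAB25, SCIN and POU3F3 were called in both backgrounds and in opposite directions (Control log2FC 1.76, 1.64, 1.95 and 2.41), with terms of −3.33 and −3.05 for TNNI3 and RAB25.

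The 8 largest positive terms were those of MSMP (4.15), FUOM (3.90), PTPRU (3.34), CYSRT1 (3.28), SH2D6 (3.23), LINC00869 (3.04), BEND7 (2.90) and RAB26 (2.74). RAB26 is a small GTPase of secretory granules, and LINC00869 a noncoding RNA. FUOM was at 43.9 and 68.1 CPM in CD133− and CD133+ Control, and at 39.9 and 4.22 in EIF4G2KD (edgeR adjusted p of the term = 5.8e-07). CYSRT1 was at 69.0 and 58.0 CPM in Control, between its EIF4G2KD levels of 161 and 15.4. CD133− Control library 2 stood apart here, with 154.5 CPM against 37.1 to 59.2 in the other 4, and it was also high for SEMA3F (71.2 against 10.2 to 15.6 CPM) and MSMP (45.7 against 2.98 to 15.1 CPM) and low for F2R (2.32 against 12.2 to 16.7 CPM). Without it the terms were 3.71 for CYSRT1, 3.28 for SEMA3F, 4.82 for MSMP and −1.71 for F2R, whose term then passed the test (edgeR adjusted p = 0.0040, and 0.086 with it). FSCN1 also differed from Control (term 2.70, adjusted p = 9.4e-05 from the same test), with 105 and 68.3 CPM there. ALDH1A1 changed sides, at 41.4 and 24.2 CPM in CD133− and CD133+ Control (log2FC 0.77, term −2.17, adjusted p = 1.7e-06 from the same test).

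Some genes were called for both sorts. Of the 54 called in Control 34 were called in EIF4G2KD, 25 in the same direction and 9 in the opposite one. All 9 had a called interaction. Differences called in opposite directions add up in the term, so this result is largely set by how the term is built. TNS4 (2.83 in EIF4G2KD, 2.39 in Control), F3 (2.07, 2.33), SLC47A2 (2.91, 2.59), PAX2 (2.38, 3.27) and FGF18 (1.72, 2.03) were higher in CD133− in both backgrounds. PROM1 was higher in CD133+ in both. None of these genes had a called interaction (edgeR adjusted p of the term from 0.19 to 0.84). SOX17 was higher in CD133− in both, and less so in EIF4G2KD (term −2.41, edgeR adjusted p = 4.5e-04).

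**Figure D3:**
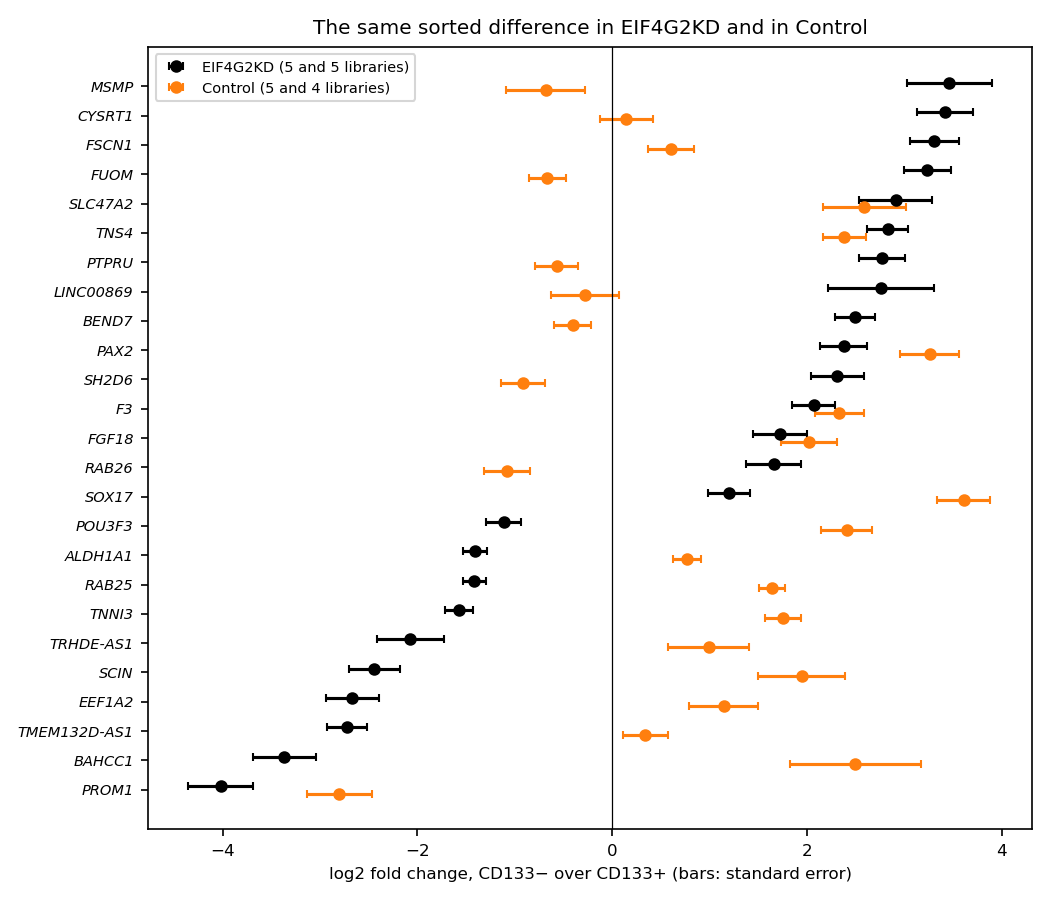
The log2FC of CD133− over CD133+ with its standard error (horizontal axis) in EIF4G2KD (black) and in Control (orange) for 25 genes, those with the largest interaction terms and some named above. TNNI3, RAB25, SCIN and POU3F3 lie on opposite sides of 0 in the 2 backgrounds, and TNS4, F3 and FGF18 on the same side.

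For most called genes the CD133+ EIF4G2KD population was the one at the end of the range of the 4 population means. It had the lowest mean for 488 of the 538 genes higher in CD133− (90.7%) and the highest for 370 of the 424 genes higher in CD133+ (87.3%). The CD133− EIF4G2KD population held the opposite end for 375 (69.7%) and 313 (73.8%) of them. The genes were chosen on the difference between these 2 populations, so these shares are a description and carry no test.

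The differences were not spread evenly over the genome. Genes were placed on chromosome arms, and 4 regions that earlier results of these data had pointed to (1q, chromosome 9, 19q and chromosome 21) held 1415 of the tested genes (13.7%) and 367 of the called genes (38.2%). On 1q the median log2FC over 453 genes was −0.48, 114 genes were called higher in CD133+ and 6 higher in CD133−. On chromosome 9 it was 0.46 over 445 genes, with 120 called higher in CD133− and 5 higher in CD133+, and 9p alone (99 genes) reached 0.63. On 19q it was 0.44 over 419 genes, with 98 and 8 called. On chromosome 21 it was 0.29 over 98 genes, with 13 and 3 called. In Control the medians were 0.05, −0.14, −0.06 and −0.17 in the same order. The 36 other arms had medians between −0.135 and 0.026.

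**Figure D4:**
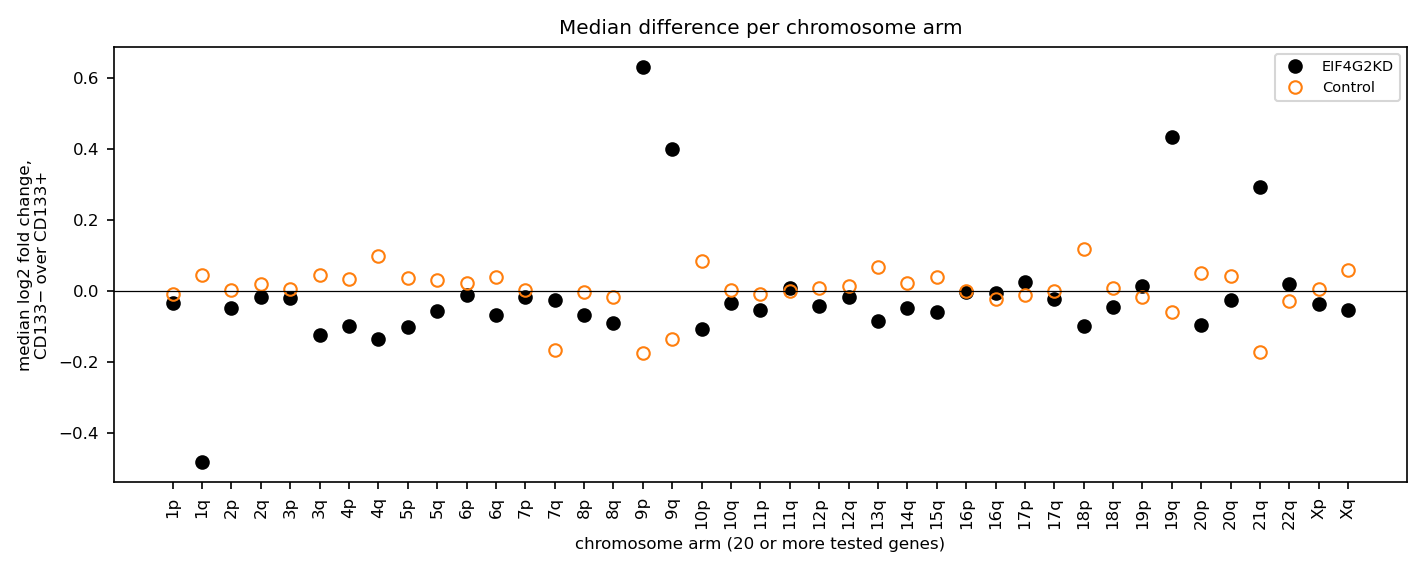
Median log2FC of CD133− over CD133+ (vertical axis) over the tested genes of each chromosome arm, in EIF4G2KD (filled) and Control (open). In EIF4G2KD 1q lies at −0.48 and 9p, 9q, 19q and 21q at 0.63, 0.40, 0.44 and 0.29, outside the −0.135 to 0.026 of the other arms.

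The shift was in the CD133+ EIF4G2KD libraries. Against the mean of the 9 Control libraries, the median gene of 1q stood at 0.40 to 0.52 log2 units in the 5 CD133+ and at 0.00 to 0.07 in the 5 CD133− EIF4G2KD libraries. The median gene of chromosome 9 stood at −0.48 to −0.35 and at −0.04 to 0.14, and that of 19q at −0.43 to −0.33 and at −0.07 to 0.12. On chromosome 21 the ranges were −0.43 to −0.22 and −0.19 to 0.05. The CD133+ and CD133− libraries did not overlap in any of the 4 regions, and the median of all other genes stayed at 0.013 to 0.045 in both populations. Named genes of these regions that had the direction of their region were RAB25, CGN, LAMB3, NES, CRABP2, PARP1, MUC1, FMOD and FAM89A on 1q, MSMP, CYSRT1, TMOD1, ALDH1B1 and RPS6 on chromosome 9, and RPL13A and COX6B1 on 19q. ALDH1A1 on 9q, TNNI3 and HPN on 19q and LINC00869 on 1q had the opposite direction. So did KLC3 on 19q, whose difference did not pass the test (log2FC −0.28, edgeR adjusted p = 0.35). The part of the regional shift in the level of any single gene was not tested.

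**Figure D5:**
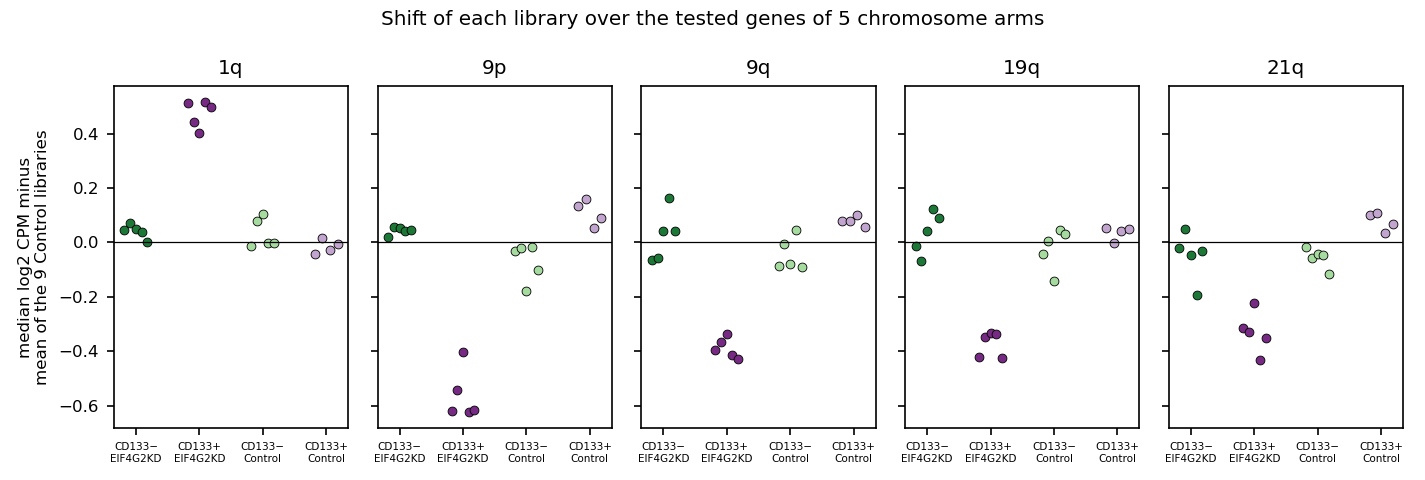
Median over the tested genes of an arm of the log2 CPM minus the mean of the 9 Control libraries (vertical axis), 1 point per library, by population, for 1q, 9p, 9q, 19q and 21q. The 5 CD133+ EIF4G2KD libraries lie at 0.40 to 0.52 on 1q and below 0 on the other 4 arms, apart from the other 3 populations.

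Outside the 4 regions, 595 genes were called, 6.67% of those tested there against 25.9% inside, with 301 higher in CD133− and 294 higher in CD133+. A fit that left these regions out gave 538 called genes, of which 534 were among the 962. Of the 55 genes called beyond 2 log2 units 14 lay in the regions, and SEMA3F, FSCN1, FUOM, TNS4, PROM1, BAHCC1, TMEM132D-AS1, EEF1A2, SCIN and CRNDE were among the 41 that did not. Of the 588 genes with a called interaction 286 lay in the regions.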

How the data were processed

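Per the submitters' processing notes, the authors used cutadapt for trimming, STAR 2.4.2a for alignment, HTSeq for counting 3' ends, and DESeq2 for their own tests. The notes list hg38 and also mm10. The use of strand is not given in the sources used here, so overlapping genes on opposite strands may share reads (among named genes also TMOD1, SP140, KRT81, ACSS2, KLC1 and SCNN1A). Of the deposited table, only the authors' raw counts were used (12558 genes). The 19 normalized columns and the authors' own log2 fold changes and p-values were left out. A value of 0 carries a limit of 3 counts, for counting error only.

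Genes were filtered by edgeR 4.0.16 (minimum count 10, minimum total 15, leaving 10338) in R 4.3.3 and scaled by TMM. One quasi-likelihood model over 19 libraries held the 4 populations and the replicate number as a block, with Benjamini-Hochberg adjustment, and was tested on simulated data. There it called 15.4%, 74.2% and 95.3% of the genes changed by 1.5, 2 and 4 fold, and 8 of 10019 unchanged genes. A gene that missed the threshold may therefore still differ. Positions came from the GRCh38 annotation, and promoters from RefSeq (74 of 92 named genes matched by symbol). FSCN1, TNS4, EEF1A2 and F2R were among those with no entry. Deviations of libraries with the same number correlated at 0.696, 0.157, −0.23, 0.303 and 0.173 in the 5 EIF4G2KD pairs, and above 0.1 in 24 of all 27 pairs. Replicate libraries differed beyond sampling noise in all 20 pairs (chi-square of 9.05 to 30.2 per degree of freedom).

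The comparison, lists and rule for named genes were chosen with earlier results of these data known. The rule took PROM1, FSCN1, HSPB8, EIF4G2, the 15 largest differences of each direction among called genes with no overlap and at least 10 CPM, genes the study speaks of, and the 8 largest interaction terms of each sign. It also took up to 4 members per list with the smallest adjusted p, of which those below 0.05 without any 1 library were named. KRT8, KRT18 and MUC1 were named as epithelial markers. A list member that the rule names is not reported here. Alternatives were no replicate block, DESeq2 1.42.0, limma-voom with quality weights (limma 3.58.1), RLE scaling, no filter, a mean count above 30, calls by the adjusted p alone, a fit of only the compared populations, CPM by library total, and leaving out libraries or the 4 chromosome regions.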

Additional observations from a re-analysis of the deposited data

Results flagged for a closer look

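Of 368 groups of libraries of the named genes, 21 had a library apart from the rest of its population by Dixon's test, where chance gives about 1 in 20. CD133+ EIF4G2KD library 3 held more SEMA3F (15.4 CPM), FUOM (8.61 CPM) and ICAM2 (11.1 CPM) than the other 4. CD133− EIF4G2KD library 5 was high for MSMP (86.9 CPM) and TOP3A (14.1 CPM), and library 4 for SLC47A2 (41.0 CPM). CD133− EIF4G2KD library 1 was high for TRHDE-AS1 (2.42 CPM). CD133+ EIF4G2KD library 5 was high for CRABP2 (47.0 CPM) and MRE11 (23.1 CPM), and library 4 was low for EGR1 (109.8 CPM). In Control, CD133− library 2 was high for SEMA3F (71.2 CPM), MSMP (45.7 CPM) and CYSRT1 (154.5 CPM), library 5 for FUOM (62.1 CPM) and F3 (142 CPM), library 3 for SP140 (1.99 CPM), and library 1 for COX6B1 (1099 CPM). CD133− Control library 3 was low for PAX2 (18.9 CPM). The CD133+ Control libraries 4, 5 and 2 were high for PTPRU (96.6 CPM), JUN (109 CPM) and KIF5B (37.2 CPM).

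For 58 named genes the CD133 difference in EIF4G2KD differed from that in Control by the edgeR interaction term, whose log2 value is given with each gene. Among genes with a positive term, further toward CD133− in EIF4G2KD than in Control, were MSMP (4.15), FUOM (3.90), PTPRU (3.34), CYSRT1 (3.28), SH2D6 (3.23), LINC00869 (3.04), BEND7 (2.90), RAB26 (2.74) and ICAM2 (2.71). Smaller positive terms were those of FSCN1 (2.70), DHRS3 (2.64), SEMA3F (2.50), UNC5A (2.34), PCDH1 (2.27), GRTP1 (2.00), SCNN1A (1.95), BIK (1.70) and ALDH1B1 (1.44). The same sign held for WNT7A (1.29), RPS6 (1.09), ACSS2 (1.02), ALDH3A2 (0.88), KRT19 (0.70), TP53I3 (0.69), HMGB2 (0.69), COX6B1 (0.62) and RPL13A (0.59). Negative terms, further toward CD133+ in EIF4G2KD, were largest for BAHCC1 (−5.86), SCIN (−4.39), EEF1A2 (−3.82), POU3F3 (−3.52), TNNI3 (−3.33), TMEM132D-AS1 (−3.06), TRHDE-AS1 (−3.06), RAB25 (−3.05) and CRNDE (−3.02). Terms closer to 0 were those of SP140 (−2.98), SERPINA5 (−2.69), SOX17 (−2.41), ALDH1A1 (−2.17), ARHGAP40 (−2.10), TGFBI (−2.04), IFI27 (−2.03), ELFN2 (−1.88) and FAM89A (−1.88). They were followed by IL1RAPL1 (−1.85), GCLM (−1.82), NES (−1.70), HPN (−1.55), MUC1 (−1.54), HSPB8 (−1.50), COL4A1 (−1.0), CGN (−0.90) and LAMB3 (−0.89). The smallest in size were those of COL4A2 (−0.87), NDUFA6 (−0.78), PARP1 (−0.58) and RPLP1 (−0.43). Without CD133− Control library 2 the term of PARP1 was −0.54 and missed the threshold (edgeR adjusted p = 0.0543).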

How the results depend on the processing

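The count of 962 genes called between CD133− and CD133+ EIF4G2KD was 606 without the replicate block, 614 with only the populations compared, 538 without the genes of 1q, 9, 19q and 21 (fewer genes tested), and 1674 by the adjusted p alone. Between 721 and 1202 were called under DESeq2, limma-voom, RLE scaling, no filter, a mean count above 30, and without the doubted libraries. Leaving out 1 library gave 777 (CD133+ EIF4G2KD 5) to 1341 (CD133+ EIF4G2KD 3). No gene called in both changed sign. The 588 interaction calls were 196 without the block, 1049 under limma-voom and 238 without the 4 regions, and 397 to 795 without 1 library. The 54 Control calls were 24 without the block, 119 under limma-voom, 125 with only Control fitted, 83 without CD133− EIF4G2KD libraries 4 and 5, 112 without the 4 libraries apart, and 25 to 66 without 1 library. The causes were not tested. Not every pair of numbers correlated, so a call lost without or with the block is not read as a weaker effect. The log2 ratio of EIF4G2 stayed between −1.485 and −1.041 without 1 library, each with an exact permutation p below 0.05.

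Of 92 named genes 84 passed the adjusted p, none reversed, and 17 of the 84 lost it under at least 1 alternative, KLC1 alone when 1 library was left out. Members taken from the lists were named only if they passed without any 1 library. The genes with the largest differences had to be called without overlap. The result on leaving out 1 library was therefore largely set by the naming rule and is no evidence of robustness. Beside those given with the genes above, GCLM (0.0734), KLC1 (0.0989), ALCAM (0.108) and KRT18 (0.0660) lost it by edgeR with only the populations compared. KRT81 (0.0553), GCLM (0.0501), KLC1 (0.207), ALCAM (0.0958) and KRT18 (0.130) lost it without CD133− libraries 4 and 5. KRT81 (0.345), COX6B1 (0.0703), RPL13A (0.0588), RPLP1 (0.0781), BRCA1 (0.0824), IFI27 (0.144) and KLC1 (0.0758) lost it without the 4 libraries apart. Depth limits the lowest genes, such as SP140 and LINC00869, which had libraries with no count, and also BAHCC1 in CD133+ Control.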
